A study of Mus musculus with 18 samples.

Results

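The genes examined here were the 49 members of the TGF-beta, activin and BMP signalling pathways that had been listed by symbol, out of 24054 genes measured in each tissue. They were listed by pathway name, with no measured value in the rule, although earlier results of these data were known when the list was made. The list held 15 ligand genes, the proteinase Bmp1, 11 receptors and coreceptors, 8 secreted or membrane antagonists, 3 further follistatin-like genes, 7 Smads and the 4 Id genes. RNA-Seq had been done on hypothalamus, pituitary and thyroid of THRB K146Q mice and WT mice, with 3 libraries from 3 mice per genotype in each tissue and 18 libraries in all. The same mouse numbers recur in every tissue, but the labels do not say in words that they mark the same animals. The K146Q mice were homozygous for a whole-body knock-in that replaces the sumoylated lysine of thyroid hormone receptor beta with glutamine. All mice were 3-month-old males of the C57BL/Ntac strain, no treatment was named for them, and the WT mice had no engineered allele. The mutation is present in every tissue, so a difference within 1 tissue is a difference between whole animals of the 2 genotypes.

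Ligands of the TGF-beta superfamily are secreted dimers that bring together type I and type II receptor kinases at the cell surface. The activated type I receptor phosphorylates receptor Smads, which join Smad4 and enter the nucleus. TGF-beta and activin receptors act through Smad2 and Smad3, and BMP receptors through Smad1, Smad5 and Smad9. Secreted antagonists bind the ligands, inhibitory Smads block the receptors, and the Id genes are classical BMP targets that encode inhibitors of helix-loop-helix transcription factors. In the pituitary, activin stimulates FSH production in gonadotrophs and inhibin opposes it, while BMP4 acts in the formation of the gland. In the thyroid, TGF-beta is known to restrain the growth of follicular cells.

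Depth ranged from 14902330 to 21230050 reads per library, and 3 reads corresponded to 0.133 to 0.190 of the deposited normalised CPM, a level scaled for library size but not for gene length. Each tissue carried its own defining markers. In the hypothalamus the summed neuronal markers ranged from 2481 to 2778 CPM over both genotypes, and in the pituitary the somatotroph markers reached at least 62593 CPM in every library. In the thyroid the summed follicular markers were 295196 to 358690 CPM in WT and 85639 to 132317 CPM in K146Q, a sum dominated by thyroglobulin. Thrb itself did not check the labels, since the allele changes 1 codon. Its level in WT and K146Q was 27.0 to 28.8 and 26.1 to 30.0 CPM in the hypothalamus, 97.7 to 106 and 142 to 184 CPM in the pituitary, and 14.9 to 16.3 and 4.98 to 7.19 CPM in the thyroid. Skeletal muscle markers in the thyroid dissections ran from 273 to 5663 CPM in WT and from 600.1 to 3404 CPM in K146Q, and choroid plexus markers in the hypothalamus from 33.7 to 124 CPM and from 36.6 to 126 CPM.

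Most of the members that differed by genotype did so in the thyroid. A member was called when its adjusted p from limma on log2(CPM + 0.5), taken over all genes tested in that tissue, was under 0.05. In the hypothalamus 0 of 48 tested members were called. In the pituitary 7 of 47 were called, 4 higher and 3 lower in K146Q. In the thyroid 27 of 48 were called, 21 higher and 6 lower.

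These counts were read against all genes of the same tissue. In the hypothalamus 0% of 15761 genes were called, with 645 genes and 3 members at an unadjusted p under 0.05. DESeq2 on recovered reads called 9 genes and 0 members there, and edgeR called 0 of either. In the pituitary 9.86% of 15589 genes were called, 6.36% higher and 3.5% lower. In the thyroid 37.8% of 15200 genes were called, 19.7% higher and 18.1% lower. The median log2 fold change of the tested thyroid members was 0.35, beside -0.03 over all genes, and that of the pituitary members was 0.01, beside -0.01. With libraries scaled on totals without the 10 highest genes, the split became 3 higher and 4 lower members in the pituitary (835 and 878 of all genes) and 18 higher and 9 lower members in the thyroid (2494 and 3610 of all genes). No named member changed direction under that scaling. The p-values measure the spread between 3 mice per group. In whole tissue fewer cells of a type and less RNA per cell cannot be told apart. How many of all genes had groups that did not overlap was not counted. A lack of overlap below therefore describes a member's values and is no further support for its call.

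**Figure D1:**
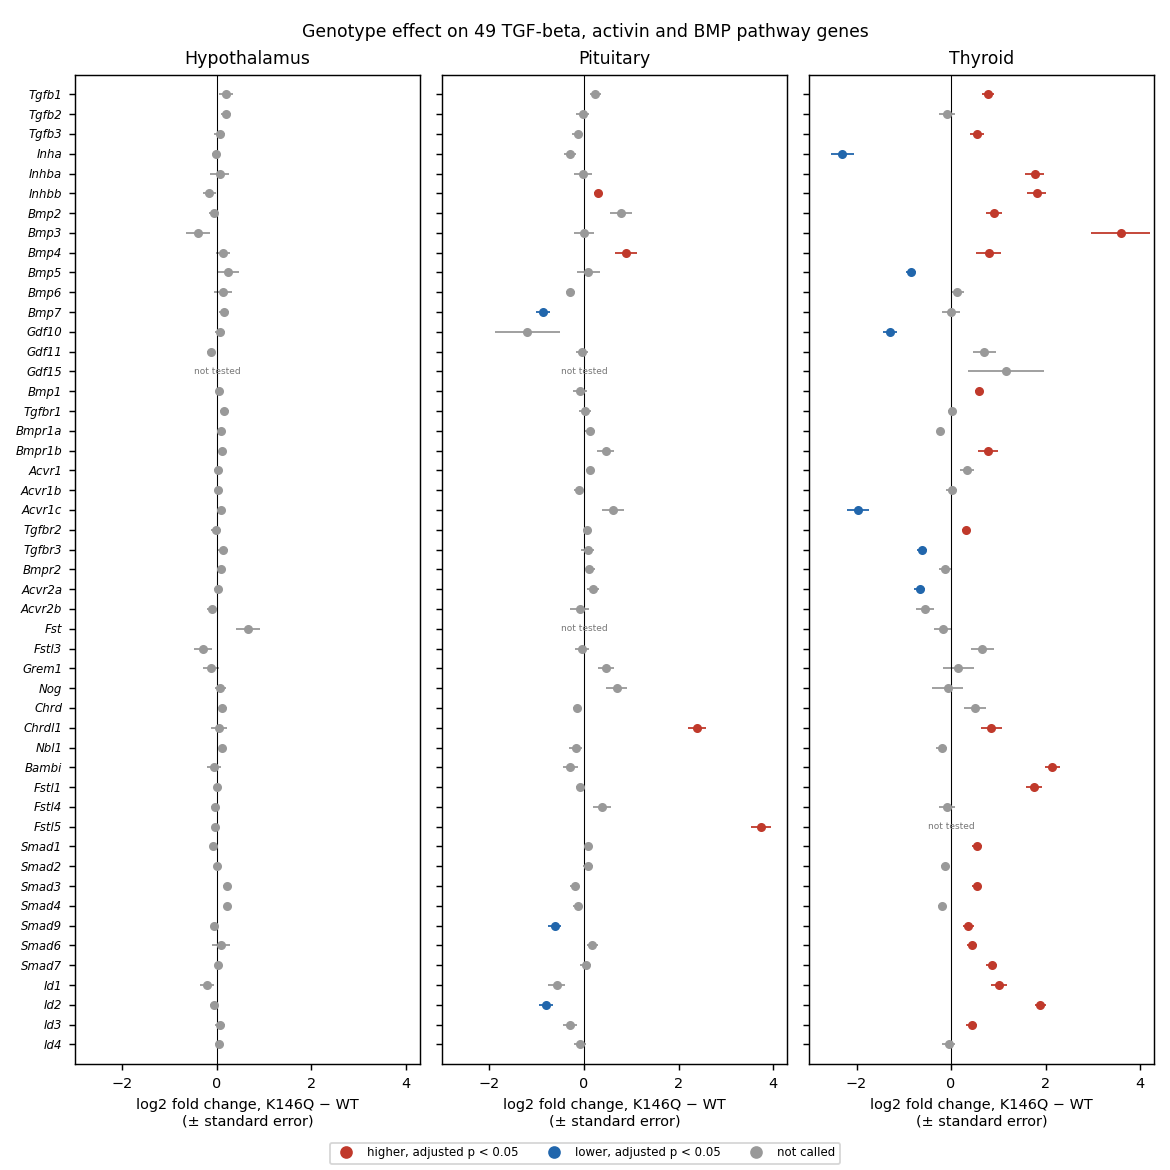
Genotype effect on the 49 members in hypothalamus, pituitary and thyroid. Each point is the log2 fold change (K146Q minus WT, horizontal axis) with its standard error from 3 mice per genotype; red points were higher and blue points lower at an adjusted p under 0.05, and grey points were not called. The hypothalamus has 0 called members, the pituitary 7 and the thyroid 27.

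All but 3 members passed the low-value filter (at least 0.5 CPM in 3 libraries) in every tissue. Gdf15 was not tested in the hypothalamus or the pituitary, Fst was not tested in the pituitary, and Fstl5 was not tested in the thyroid. In WT mice the mean level was highest in the thyroid for 23 members, in the pituitary for 14 and in the hypothalamus for 12.

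Among the TGF-beta ligands, 2 of 3 rose in the K146Q thyroid, beside 19.7% of all genes. Tgfb1, the most widely expressed isoform, measured 52.7, 42.96 and 61.0 CPM in the WT thyroids and 87.2, 95.4 and 84.2 CPM in the K146Q thyroids. The groups did not overlap, and the log2 fold change was 0.77 ± 0.13 (standard error) with a limma adjusted p of 0.00322. Tgfb3 measured 33.9, 25.2 and 35.2 CPM in WT and 42.3, 42.3 and 53.4 CPM in K146Q, a log2 fold change of 0.55 ± 0.15 with a limma adjusted p of 0.0261. This call was lost without WT mouse 2 or K146Q mouse 62 or 83. Tgfb2 overlapped between the genotypes in the thyroid, at 5.89 to 8.08 CPM in WT and 5.45 to 7.17 CPM in K146Q.

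None of the 3 TGF-beta genes was called in the other tissues. In the pituitary Tgfb1 was at 12.5 CPM in each WT library and at 16.2, 15.01 and 13.4 CPM in K146Q, which did not pass (log2 fold change 0.24, limma adjusted p = 0.202). Tgfb2 was at 8.71 to 11.8 CPM in WT and 9.38 to 10.7 CPM in K146Q pituitaries. Tgfb3 was at 18 to 21.8 CPM and 16.2 to 20.1 CPM. These ranges overlapped for Tgfb2 and Tgfb3. In the hypothalamus the 3 genes had log2 fold changes between 0.06 and 0.20 and overlapping groups.

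The activin and inhibin subunits moved in opposite directions in the K146Q thyroid. Activins are dimers of the beta subunits encoded by Inhba and Inhbb, while Inha encodes the alpha subunit that turns a beta subunit into inhibin. Inhbb measured 13.9, 14.7 and 21.4 CPM in the WT thyroids and 46.2, 63.6 and 68.2 CPM in the K146Q thyroids. The mean was 3.56-fold higher, and the log2 fold change was 1.81 ± 0.20 with a limma adjusted p of 5.5e-04. Inhba was low in WT at 0.568, 0.569 and 0.361 CPM, from as few as 6 reads, and measured 2.92, 2.59 and 3.17 CPM in K146Q. Its ratio of means was 5.79, while its log2 fold change was 1.77 ± 0.19 (limma adjusted p = 5.1e-04) and ranged from 1.38 to 2.55 over the other settings. Inha fell, from 4.67, 4.94 and 6.98 CPM in WT to 0.595, 1.06 and 0.528 CPM in K146Q. The WT mean was 7.61-fold higher than the K146Q mean, and the log2 fold change was -2.30 ± 0.24 with a limma adjusted p of 4.1e-04. The groups were fully separated for all 3 genes. Of the 3 subunit genes 2 were called higher and 1 lower, beside 19.7% and 18.1% of all thyroid genes.

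In the pituitary Inhbb was the only subunit called, and its change was small. It measured 42.3, 38.1 and 43.7 CPM in WT and 51.0, 51.1 and 50.6 CPM in K146Q, a log2 fold change of 0.30 ± 0.08 with a limma adjusted p of 0.0454. The call was lost in each of the 6 fits without 1 mouse, with no low-value filter, with no variance trend and with totals without the 10 highest genes. Inha measured 24.2, 34.4 and 28.3 CPM in WT pituitaries and 22.5, 24.5 and 22.3 CPM in K146Q, overlapping by 1 library (log2 fold change -0.31, limma adjusted p = 0.169). Inhba was at 2.29 to 2.98 CPM in WT and 2.01 to 3.16 CPM in K146Q. Fshb, the FSH subunit gene that activin stimulates in gonadotrophs, was at 504 to 760 CPM in WT and 640 to 794 CPM in K146Q pituitaries and was not called (limma adjusted p = 0.456). The summed gonadotroph markers were 1194 to 1664 CPM in WT and 1443 to 1591 CPM in K146Q.

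In the hypothalamus all 3 subunit genes overlapped between genotypes. Inha was at 24.6 to 26.3 CPM in WT and 23.5 to 27.5 CPM in K146Q, Inhba at 1.16 to 1.39 and 0.901 to 1.69 CPM, and Inhbb at 7.95 to 10.4 and 7.45 to 10.4 CPM.

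BMP and GDF ligands rose or fell singly in the thyroid, with 3 of 9 higher, 2 lower and 4 not called. Among all thyroid genes 19.7% were higher and 18.1% lower. Bmp3, an atypical BMP that opposes osteogenic BMPs, showed the largest log2 fold change of any member there. Its level was 4.17, 0.506 and 6.13 CPM in the WT thyroids and 30.5, 40.1 and 42.3 CPM in the K146Q thyroids. The mean was 10.4-fold higher and the log2 fold change was 3.58 ± 0.62 with a limma adjusted p of 0.00377. WT mouse 2 was far below the other WT mice, with 8 reads, and without a single mouse the log2 fold change ran from 2.76 to 4.12.

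Bmp2 measured 11.3, 9.05 and 13.2 CPM in the WT thyroids and 18.7, 20.5 and 25.2 CPM in K146Q, with no overlap. The log2 fold change was 0.91 ± 0.17 (limma adjusted p = 0.00512). Bmp4 measured 8.21, 5.44 and 9.80 CPM in WT and 17.3, 14.5 and 9.91 CPM in K146Q, so that the lowest K146Q library lay just above the highest WT library. Its log2 fold change was 0.80 ± 0.26 with a limma adjusted p of 0.0457, and the call held in 2 of 6 fits without 1 mouse. It was lost without WT mouse 1 or 2 or K146Q mouse 60 or 62, and also with no low-value filter, with no variance trend and with totals without the 10 highest genes.

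The falling ligands were Gdf10 and Bmp5. Gdf10, also known as BMP3B, measured 41.8, 48.4 and 36.0 CPM in the WT thyroids and 20.02, 14.7 and 16.1 CPM in K146Q, a log2 fold change of -1.29 ± 0.15 with a limma adjusted p of 6.9e-04. Bmp5 measured 120, 95.0 and 103 CPM in WT and 58.4, 54.6 and 61.7 CPM in K146Q (log2 fold change -0.86 ± 0.10, limma adjusted p = 8.0e-04). Neither gene overlapped between the genotypes. Gdf15, a stress-responsive ligand, varied within genotype far more than between them. It was at 363, 31.2 and 247 CPM in WT and 339, 238 and 393 CPM in K146Q, and its log2 fold change of 1.16 had a standard error of 0.81 (limma adjusted p = 0.296). Gdf11, Bmp6 and Bmp7 were not called, with log2 fold changes of 0.70, 0.13 and 0.00.

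Bmp1, which encodes a procollagen and chordin proteinase rather than a ligand, measured 40.9, 39.4 and 41.7 CPM in the WT thyroids and 60.7, 64.1 and 58.4 CPM in K146Q. The log2 fold change was 0.58 ± 0.08 with a limma adjusted p of 0.00109.

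In the pituitary 1 of 8 tested BMP and GDF ligands rose and 1 fell, beside 6.36% and 3.5% of all genes. Bmp4 measured 3.69, 3.60 and 3.82 CPM in WT and 10.7, 6.99 and 5.12 CPM in K146Q, a log2 fold change of 0.89 ± 0.23 with a limma adjusted p of 0.0363. The K146Q libraries were all above WT but far apart from each other, and the call held only in the fit without K146Q mouse 83 among the 6 fits without 1 mouse. It was also lost with no low-value filter and with no variance trend. Bmp7, which shares receptors with other osteogenic BMPs, measured 15.4, 19.96 and 13.2 CPM in WT and 8.15, 8.68 and 8.68 CPM in K146Q. It fell by 0.87 ± 0.15 on the log2 scale (limma adjusted p = 0.00654), with no overlap, and the call held in all 6 fits without 1 mouse. Bmp2 (log2 fold change 0.78, limma adjusted p = 0.0719) overlapped by 1 library and Bmp6 (-0.29, 0.0898) not at all, and neither was called. Gdf10 measured 1.16, 1.03 and 10.8 CPM in WT mice 1, 2 and 43, against 0.774, 0.306 and 1.81 CPM in K146Q, so its log2 fold change of -1.20 rested on that 1 library (limma adjusted p = 0.319).

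In the hypothalamus Bmp4 was at 1.97 to 2.14 CPM in WT and 2.00 to 2.47 CPM in K146Q, and the tested BMP and GDF ligands had log2 fold changes from -0.40 for Bmp3 to 0.24 for Bmp5.

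**Figure D2:**
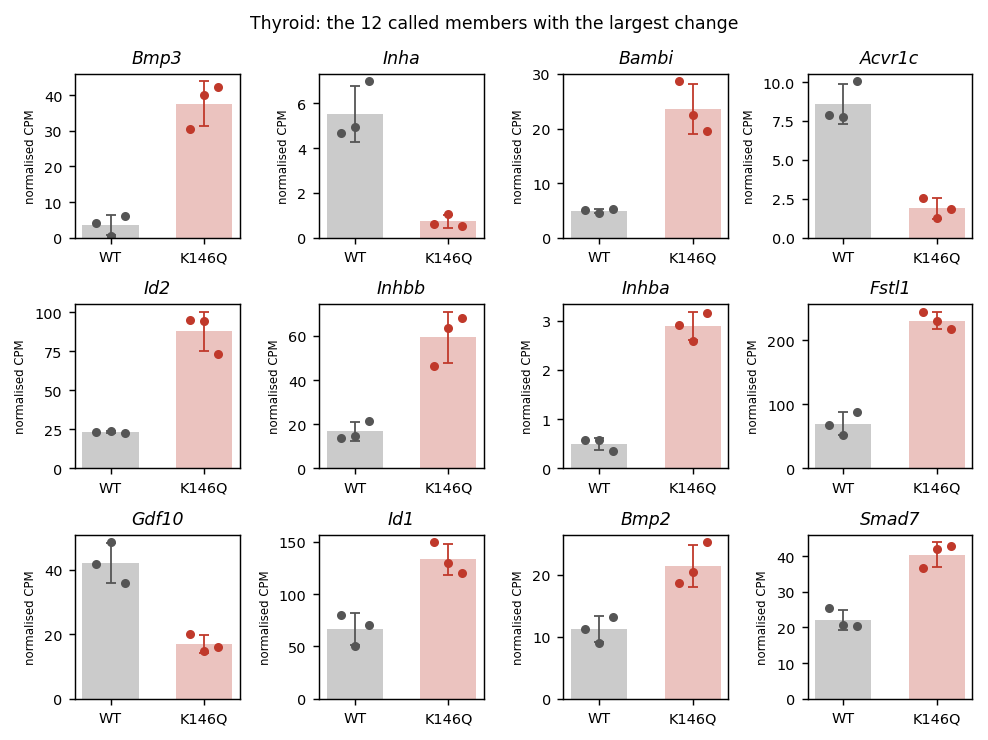
Normalised CPM of the 12 called members with the largest log2 fold change in the thyroid. Points are single mice (3 WT in grey, 3 K146Q in red), bars are group means from 0 and error bars are SD; in each panel the 2 groups are separated, with Bmp3, Bambi, Id2, Inhbb, Inhba, Fstl1, Id1, Bmp2 and Smad7 higher and Inha, Acvr1c and Gdf10 lower in K146Q.

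Receptors moved both ways in the thyroid. Of 11 receptors and coreceptors, 2 were higher, 3 lower and 6 not called, with a median log2 fold change of -0.12. Beside this, 19.7% of all genes were higher and 18.1% lower, which does not set the receptors apart. Acvr1c, the type I receptor ALK7 for activin B and some GDFs, measured 7.89, 7.78 and 10.04 CPM in the WT thyroids and 2.58, 1.23 and 1.82 CPM in K146Q. Its WT mean was 4.57-fold higher, and the log2 fold change was -1.96 ± 0.24 with a limma adjusted p of 7.6e-04. Acvr2a, an activin type II receptor, measured 32.3, 31.8 and 26.8 CPM in WT and 19.0, 17.3 and 20.5 CPM in K146Q (log2 fold change -0.66 ± 0.11, limma adjusted p = 0.00361). Tgfbr3, the coreceptor betaglycan that binds TGF-beta and inhibin, measured 119, 131 and 105 CPM in WT and 69.6, 84.6 and 76.7 CPM in K146Q (-0.62 ± 0.11, limma adjusted p = 0.0041). None of these 3 genes overlapped between the groups, and all 3 calls held in every fit without 1 mouse.

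Bmpr1b, a BMP type I receptor, rose from 16.2, 9.49 and 15.3 CPM to 22.4, 20.3 and 27.0 CPM in the thyroid. The log2 fold change was 0.77 ± 0.21 (limma adjusted p = 0.0238), and the call was lost without K146Q mouse 60 or 83. Tgfbr2, the TGF-beta type II receptor, measured 100, 86.3 and 92.3 CPM in WT and 113, 110 and 120 CPM in K146Q, a log2 fold change of 0.31 ± 0.08 (limma adjusted p = 0.0234). This small change kept its call in 1 of 6 fits without 1 mouse, that without WT mouse 1, and lost it with totals that left out the 10 highest genes. Tgfbr1, Acvr1, Acvr1b and Bmpr2 overlapped between genotypes, while Bmpr1a (-0.23, limma adjusted p = 0.0555) and Acvr2b (-0.55, 0.0541) did not overlap and just missed the threshold.

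In the pituitary 0 of 11 receptors were called, beside 9.86% of all genes. Their log2 fold changes ran from -0.11 for Acvr1b to 0.62 for Acvr1c. Acvr1c was at 25.2, 11.2 and 18.7 CPM in WT and 26.4, 28.2 and 26.8 CPM in K146Q pituitaries, the lowest K146Q library just above the highest WT library (limma adjusted p = 0.128). In the hypothalamus the 11 receptors lay between -0.10 and 0.16.

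Of the antagonists, 2 of 8 rose in the thyroid and 0 fell, beside 19.7% of all genes that rose and 18.1% that fell, which does not set the antagonists apart. Bambi, a pseudoreceptor without a kinase that blocks TGF-beta and BMP receptors, measured 5.05, 4.49 and 5.17 CPM in the WT thyroids and 28.6, 22.4 and 19.6 CPM in K146Q. The mean was 4.80-fold higher, and the log2 fold change was 2.14 ± 0.16 with a limma adjusted p of 1.2e-04. Chrdl1, a chordin-like protein that binds BMPs, measured 25.2, 13.6 and 14.98 CPM in WT and 30.4, 34.0 and 30.4 CPM in K146Q (0.85 ± 0.22, limma adjusted p = 0.0176), and the call was lost without K146Q mouse 62. Follistatin (Fst), the main activin-binding protein, overlapped at 3.79 to 5.25 CPM in WT and 3.27 to 4.63 CPM in K146Q. Grem1, Nog and Nbl1 overlapped as well, and Fstl3 and Chrd had log2 fold changes of 0.66 and 0.51 that were not called (limma adjusted p = 0.0643 and 0.112).

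The antagonist that moved most in the pituitary was Chrdl1. It measured 33.6, 20.5 and 38.6 CPM in WT and 179, 151 and 148 CPM in K146Q. Every K146Q library was far above every WT library, the mean was 5.17-fold higher, and the log2 fold change was 2.39 ± 0.20 with a limma adjusted p of 1.3e-04. Nog, another BMP-binding protein, was at 19.4, 26.9 and 43.1 CPM in WT and 43.5, 45.8 and 48.9 CPM in K146Q and was not called (0.69, limma adjusted p = 0.0896). Fst was at or under 0.399 CPM in every pituitary library, with 0 in 1 of them, so no difference was detectable at this depth. In the hypothalamus Fst was at 0.119, 0.636 and 0.406 CPM in WT and 0.966, 0.901 and 0.699 CPM in K146Q, separated at these low counts but not called (log2 fold change 0.65, limma adjusted p = 0.998).

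The follistatin-like genes gave the largest change of any member in the pituitary. Fstl5, a secreted protein of the follistatin family, measured 3.03, 1.83 and 1.88 CPM in WT and 47.6, 31.3 and 30.7 CPM in K146Q. The mean was 16.3-fold higher, and the log2 fold change was 3.75 ± 0.21 with a limma adjusted p of 3.6e-05. In the thyroid Fstl5 was between 0 and 0.189 CPM in all 6 libraries, and in the hypothalamus it was at 43.6 to 46.5 CPM in WT and 42.4 to 45.4 CPM in K146Q. Fstl1, a secreted glycoprotein abundant in mesenchymal cells, rose in the thyroid from 67.8, 52.1 and 88.0 CPM to 244, 230 and 218 CPM. Its log2 fold change was 1.76 ± 0.17 (limma adjusted p = 3.4e-04). In the pituitary Fstl1 was at 47.5 to 53.4 CPM in WT and 44.7 to 47.7 CPM in K146Q and was not called.

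**Figure D3:**
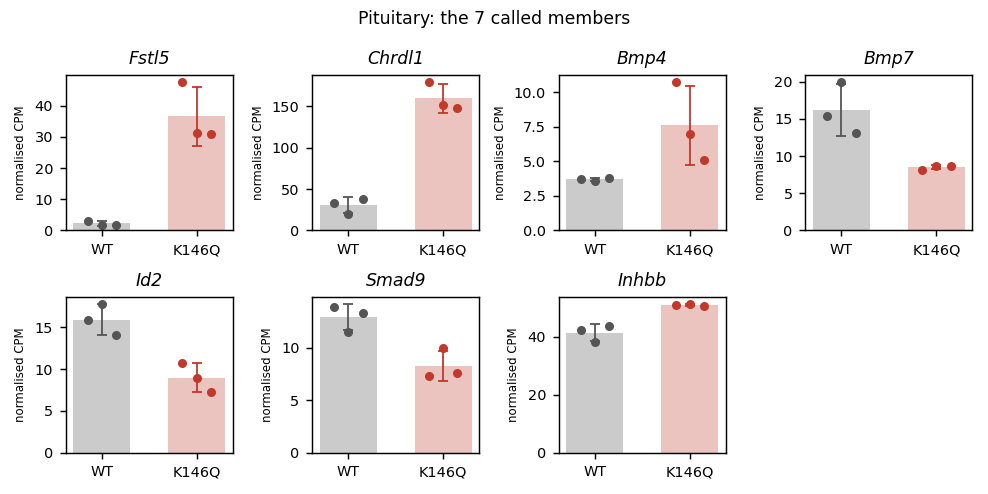
Normalised CPM of the 7 called members in the pituitary. Points are single mice (3 WT in grey, 3 K146Q in red), bars are group means from 0 and error bars are SD. Fstl5 and Chrdl1 are 16.3-fold and 5.17-fold higher in K146Q, Bmp4 and Inhbb are higher by less, and Bmp7, Id2 and Smad9 are lower.

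Smads, the intracellular mediators, rose by modest amounts in the thyroid, 5 of 7 being higher and 0 lower, beside 19.7% and 18.1% of all genes. Smad7, an inhibitory Smad, measured 25.4, 20.6 and 20.4 CPM in WT and 36.5, 42.1 and 42.7 CPM in K146Q. Its log2 fold change was 0.86 ± 0.12 with a limma adjusted p of 0.00131. Smad6, the other inhibitory Smad, rose by 0.45 on the log2 scale (limma adjusted p = 0.0151). It was at 41.4 to 52.5 CPM in WT and 59.5 to 68.1 CPM in K146Q. Smad1, a receptor Smad of the BMP branch, was at 33.3 to 42.6 CPM in WT and 52.6 to 55.6 CPM in K146Q (0.55, limma adjusted p = 0.00581). Smad3, of the TGF-beta and activin branch, was at 83.4 to 98.4 CPM and 123 to 148 CPM (0.54, limma adjusted p = 0.00502). Neither pair of groups overlapped. Smad9 rose by 0.36 (limma adjusted p = 0.0398), a call lost without WT mouse 1 or 43 or K146Q mouse 62 or 83, with no variance trend and with totals without the 10 highest genes. Smad2 (-0.13) and the common Smad4 (-0.20) were not called.

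In the pituitary Smad9, a receptor Smad of the BMP branch, was the only Smad called. It measured 13.9, 11.6 and 13.3 CPM in WT and 7.33, 9.95 and 7.57 CPM in K146Q, a log2 fold change of -0.62 ± 0.14 with a limma adjusted p of 0.0261. The groups were separate, and the call was lost without WT mouse 1 or 43 or K146Q mouse 60 or 83. The other 6 Smads had log2 fold changes from -0.20 to 0.17 there.

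The Id gene that changed most, Id2, moved in opposite directions in the 2 glands. Id2 measured 23.4, 23.6 and 22.7 CPM in the WT thyroids and 95.4, 94.6 and 73.2 CPM in the K146Q thyroids. This was a 3.77-fold higher mean and a log2 fold change of 1.88 ± 0.12 with a limma adjusted p of 6.0e-05. In the pituitary Id2 measured 15.9, 17.7 and 14.1 CPM in WT and 10.7, 8.93 and 7.22 CPM in K146Q, a log2 fold change of -0.81 ± 0.15 with a limma adjusted p of 0.0106. Neither pair of groups overlapped, and both calls held in all 6 fits without 1 mouse. In the hypothalamus Id2 was at 40.9 to 51.3 CPM in WT and 42.6 to 48.1 CPM in K146Q.

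Id1 rose in the thyroid by a smaller amount. It measured 79.8, 50.3 and 70.3 CPM in the WT thyroids and 149, 130 and 120 CPM in the K146Q thyroids (1.01 ± 0.17, limma adjusted p = 0.00325). In the pituitary it was at 6.05, 8.87 and 6.27 CPM in WT and 5.31, 4.44 and 3.86 CPM in K146Q, separated but not called (-0.58, limma adjusted p = 0.0762). Id3 measured 159, 117 and 137 CPM in the WT thyroids and 189, 190 and 176 CPM in K146Q (0.44 ± 0.12, limma adjusted p = 0.0223), a call lost without WT mouse 43 or K146Q mouse 60 or 62. In the pituitary Id3 was at 11.7 to 16.6 CPM in WT and 9.33 to 11.6 CPM in K146Q (-0.30, limma adjusted p = 0.269). Id4 overlapped between genotypes in every tissue, at 148 to 212 CPM in WT thyroids and 168 to 188 CPM in K146Q thyroids, and at 22.2 to 31.4 and 25.2 to 27.7 CPM in the pituitaries. Hypothalamic Id1, Id3 and Id4 had log2 fold changes of -0.21, 0.07 and 0.04, none called.

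The promoters of Id2, Id3 and Id4 are shown because these genes ranged from the strongest to no change in the thyroid. Id3 and Id4 were added for this contrast after their values were seen. The RefSeq sequences of the GRCm38.p6 build run 5′ to 3′ on the gene's strand, from 250 bases before to 50 bases after the transcription start, at chr12:25096043-25096342 on the minus strand for Id2, chr4:136143572-136143871 on the plus strand for Id3 and chr13:48260866-48261165 on the plus strand for Id4. Of the 49 members, 35 had such a promoter entry. Capitals mark GGCGCC, a GC-rich element that BMP Smads can bind, and TGACG or its complement CGTCA, the core of a cAMP response element.
Id2: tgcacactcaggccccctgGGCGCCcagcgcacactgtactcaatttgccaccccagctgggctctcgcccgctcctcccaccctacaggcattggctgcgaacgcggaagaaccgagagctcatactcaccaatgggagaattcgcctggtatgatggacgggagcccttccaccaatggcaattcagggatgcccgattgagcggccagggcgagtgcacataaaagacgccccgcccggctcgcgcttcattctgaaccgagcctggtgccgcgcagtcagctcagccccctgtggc
Id3: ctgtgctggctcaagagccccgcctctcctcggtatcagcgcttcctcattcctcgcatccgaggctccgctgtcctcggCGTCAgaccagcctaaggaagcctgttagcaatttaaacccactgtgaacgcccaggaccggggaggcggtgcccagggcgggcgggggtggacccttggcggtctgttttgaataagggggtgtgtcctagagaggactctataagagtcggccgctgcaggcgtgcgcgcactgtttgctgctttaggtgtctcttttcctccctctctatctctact
Id4: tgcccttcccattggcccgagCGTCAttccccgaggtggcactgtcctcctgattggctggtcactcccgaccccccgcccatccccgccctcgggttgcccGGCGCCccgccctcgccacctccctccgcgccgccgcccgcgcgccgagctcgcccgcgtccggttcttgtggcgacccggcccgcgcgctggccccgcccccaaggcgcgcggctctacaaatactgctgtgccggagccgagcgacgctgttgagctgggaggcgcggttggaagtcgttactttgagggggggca
The search covered both strands for the Smad box GTCT (AGAC on the other strand) and for the marked motifs. AGGTCA, the single hexamer that thyroid hormone receptors recognise, was searched as well. Id2 held 1 Smad box and 1 GGCGCC, Id3 held 3 Smad boxes and 1 TGACG, and Id4 held 0 Smad boxes, 1 GGCGCC and 1 TGACG. In Id3 the marked CGTCA shares its last base with a Smad box. AGGTCA was not in any of the 3 windows. Of 32851 promoters of the same length, 88.0% held a Smad box, 11.9% GGCGCC, 16.3% AGGTCA and 20.8% TGACG. These matches describe letters only, and their part in the changes of the Id genes was not tested.

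Genotype effects differed between tissues when the difference itself was tested. A joint fit of all 18 libraries with limma called 4 of 49 members for pituitary against hypothalamus, beside 3.24% of 17140 genes, 20 for thyroid against hypothalamus, beside 30.8%, and 26 for thyroid against pituitary, beside 33.8%. In the pituitary against the hypothalamus, the log2 genotype effect was higher by 3.79 ± 0.26 for Fstl5 (limma adjusted p = 3.7e-07) and by 2.35 ± 0.31 for Chrdl1 (limma adjusted p = 2.9e-04). It was lower for Bmp7 (-1.02) and Id2 (-0.74). The Bmp7 call was lost without mouse 1, 60 or 62, and the Id2 call was lost in each of the 6 fits without 1 mouse and without a variance trend. In the thyroid against the pituitary the effect on Id2 differed by 2.69 ± 0.19 (limma adjusted p = 1.8e-08), on Bambi by 2.43 ± 0.24 and on Fstl1 by 1.85 ± 0.18.

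Of the 49 members, 5 were called in both the pituitary and the thyroid. Inhbb, Bmp4 and Chrdl1 were higher in K146Q in both glands, while Id2 and Smad9 were lower in the pituitary and higher in the thyroid. Among the 6 fits without 1 mouse, the pituitary call held in 0 for Inhbb, 1 for Bmp4 and 2 for Smad9. The thyroid call held in 2 of 6 for Bmp4 and for Smad9 and in 5 of 6 for Chrdl1. Of all genes tested, 9.86% were called in the pituitary and 37.8% in the thyroid. How many of all genes were called in both glands was not counted. The 5 members and their directions therefore cannot be set against such a share. A further 22 members were called only by the thyroid test and 2, Fstl5 and Bmp7, only by the pituitary test. Of these, Fstl5 was not tested in the thyroid.

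**Figure D4:**
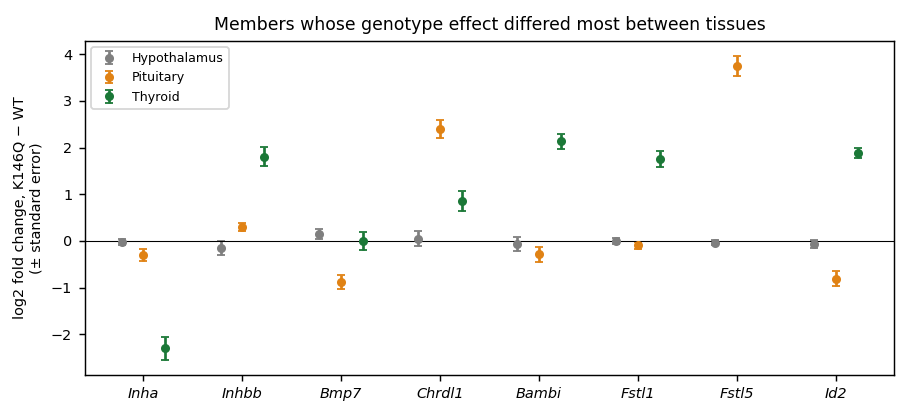
Log2 fold change (K146Q minus WT, vertical axis) with its standard error in hypothalamus (grey), pituitary (orange) and thyroid (green), 3 mice per genotype, for the 8 members whose tissue difference was among the 5 with the smallest adjusted p of a contrast and was called. Hypothalamic values lie near 0, Id2 is at -0.81 in the pituitary and 1.88 in the thyroid, and Fstl5 has no thyroid point because it did not pass the filter there.

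Other genes of the pathway, taken from a list of 93, gave the setting in which the members moved. In the thyroid 27 of 71 tested were higher and 7 lower, beside 19.7% and 18.1% of all genes. In the pituitary 6 of 71 were higher and 6 lower, beside 6.36% and 3.5% of all genes. The TGF-beta and activin target list had 7 of 11 tested genes higher and 0 lower in the thyroid, with a median log2 fold change of 1.36. Tgfbi, a TGF-beta-induced matrix protein, was at 44.4 to 94.1 CPM in WT and 1094 to 1563 CPM in K146Q thyroids (4.09 ± 0.29, limma adjusted p = 1.0e-04). Fn1, which encodes fibronectin, was at 123 to 194 CPM and 1034 to 1613 CPM (3.21 ± 0.22). Ctgf rose by 2.56 and Col1a1 by 1.79 on the log2 scale. Col1a1 and Col1a2 stand both in this target list and in the fibroblast marker list used below, so the lists are not separate readouts.

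The latency and matrix carrier list, which also holds integrins and proteinases, had 8 of 16 tested genes higher and 2 lower in the thyroid. Over all thyroid genes 19.7% were higher and 18.1% lower. Ltbp2, a latent TGF-beta binding protein family member, rose by 2.60 on the log2 scale, the fibrillin gene Fbn1 by 2.03 and the integrin gene Itgb8, whose product activates latent TGF-beta, by 2.02. Of the BMP targets, 3 of 5 were higher, led by Dlx5, a homeobox gene, (3.12). Other antagonists had 3 of 13 higher and 0 lower, a share near the 19.7% of all genes, led by Sostdc1, a secreted BMP inhibitor, which was at 8.54 to 18.8 CPM in WT and 142 to 188 CPM in K146Q (3.52 ± 0.26, limma adjusted p = 1.2e-04). Lefty2, a ligand that antagonises Nodal, fell, at 15.2 to 15.6 CPM in WT and 1.35 to 1.73 CPM in K146Q (-2.995 ± 0.14, limma adjusted p = 2.1e-05). The endothelial coreceptor gene Eng also rose (limma adjusted p = 3.9e-04).

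Pituitary changes among the other pathway genes included a further antagonist. Vwc2, a chordin-like BMP-binding protein also called brorin, was at 1.14 to 2.71 CPM in WT and 7.72 to 14.7 CPM in K146Q pituitaries (2.21 ± 0.29, limma adjusted p = 0.00161). It lay above WT in every K146Q library. Itgb8 rose by 1.28 on the log2 scale, while Pcsk6, a proprotein convertase that processes TGF-beta family ligands, fell by 0.87 on the log2 scale.

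Marker genes of several cell types moved with genotype in the same libraries. In the K146Q thyroid the 5 smooth muscle and pericyte markers were all higher, summing to 405 to 519 CPM against 243 to 294 CPM in WT, and the 5 markers of dividing cells were all higher, at 168 to 215 CPM against 46.7 to 71.5 CPM. Leukocyte markers summed to 208 to 219 CPM against 82.2 to 114 CPM, with 4 of 5 tested genes higher. The fibroblast list summed to 2490 to 2858 CPM against 1030 to 1290 CPM, but its genes split, the 3 collagen genes being higher and Pdgfra and Dcn lower. Endothelial markers summed to 738 to 825 CPM against 587 to 689 CPM, with 2 of 5 higher.

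All 6 adipocyte markers were lower in the K146Q thyroid, at 97.9 to 194 CPM against 700 to 775 CPM, as were the 3 parathyroid markers, at 523 to 1569 CPM against 3454 to 6409 CPM. The summed C cell list was at 166 to 312 CPM against 2070 to 2592 CPM, nearly all of it Calca, while Calcb was higher and Slc18a3 at or near 0. Acvr1c, Gdf10, Bmp5, Inha, Acvr2a and Tgfbr3 fell in the libraries where these lists fell, and the rising members rose where the collagen, smooth muscle, leukocyte and cell division genes rose. The part of these cell types in the members' changes was not tested.

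**Figure D5:**
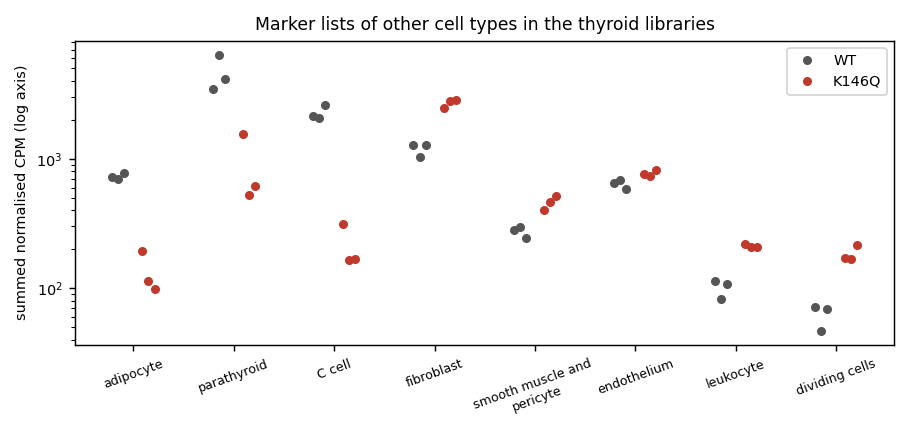
Summed normalised CPM (log axis) of 8 marker lists in the 6 thyroid libraries, grey for the 3 WT mice and red for the 3 K146Q mice. Adipocyte, parathyroid and C cell sums are lower and fibroblast, smooth muscle, endothelium, leukocyte and dividing cell sums higher in K146Q, with no overlap between the genotypes in these 8 lists. Other lists are not drawn, among them skeletal muscle, whose sums overlapped. In the fibroblast list 3 genes were higher and 2 lower.

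In the pituitary the 3 thyrotroph markers were higher in K146Q, summing to 6357 to 9199 CPM against 328 to 708 CPM. Somatotroph markers summed to 62593 to 75481 CPM against 97899 to 213197 CPM, and the lactotroph marker Prl to 6929 to 8664 CPM against 19074 to 30662 CPM. Leukocyte markers were at 67.8 to 102 CPM against 42.9 to 48.5 CPM with 3 of 5 higher, and stem and folliculostellate markers at 300 to 377 CPM against 370 to 436 CPM with 0 of 5 called. The neuronal list was at 743 to 814 CPM against 483 to 547 CPM with 2 of 4 higher, and the endothelial list at 271 to 273 CPM against 234 to 248 CPM with 1 of 5 higher. Fstl5 and Chrdl1 rose in the same libraries as the thyrotroph, neuronal, endothelial and leukocyte markers, and Bmp7, Id2 and Smad9 fell there. Whether the members changed within 1 cell type or with the share of cell types cannot be told apart in whole pituitary.

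Some members overlap exons of another gene in the GENCODE M21 annotation of GRCm38, and the strand setting of the libraries was not given. Of the called members, Tgfb3 (12:86056745-86079041), Bmp4 (14:46383520-46390669), Bmp5 (9:75775364-75900310), Acvr1c (2:58267453-58357895) and Acvr2a (2:48814109-48903269) have such a partner on the opposite strand, for Acvr2a the gene Orc4, so reads from both genes cannot be told apart there. Among the members with the largest changes, Fstl5 (3:76074270-76710019), Chrdl1 (X:143285674-143394262), Bmp3 (5:98854415-98884396), Inha (1:75507077-75510366), Inhbb (1:119415465-119422248) and Id2 (12:25093799-25097140) have none. Tgfbr3 (5:107106570-107289629) overlaps an exon of Gm43422 on the same strand.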

How the data were processed

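The 18 RNA-Seq libraries were 3 per genotype in each of hypothalamus, pituitary and thyroid. The labels name bcl2fastq 2.17, Bowtie2 2.1.0, RSEM 1.2.15 and the mm10 build, while the annotation, the strand setting and the normalisation software were not given in the sources used here. The deposited values are a signal made by the authors, counts scaled to library size with a library factor of their own (called CPM here), in 1 table per tissue. In 100% of values these were whole multiples of what 1 read is worth, within 0.05 of a read, so reads were recovered for the count tests. The tables also hold the authors' own comparisons (log fold change, mean level, test statistic, p-value and false discovery rate), which were not used.

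Values were tested as log2(CPM + 0.5) with limma 3.58.1 (R 4.3.3, variance trend) in each tissue, keeping genes with at least 0.5 CPM in 3 libraries, with Benjamini-Hochberg adjustment over all genes and a threshold of 0.05. The scale understates changes of low genes. Effects were compared between tissues in a joint fit of all 18 libraries over the 24027 symbols shared. Alternatives were pseudocounts of 0.1 and 1, other filters, no variance trend, quantile scaling, totals without the 10 highest genes, edgeR 4.0.16 and DESeq2 1.42.0 on recovered reads, a replicate block, and each mouse left out. The limma fit within each tissue was tested on simulated counts at the main setting, but the joint fit and the alternatives were not. The simulation gave every gene the same dispersion and added only large changes to well-expressed genes. It therefore does not cover small changes or genes with few reads. The members and gene lists were chosen with earlier results of these data known. Values per library were given for the 12 called members with the largest change in a tissue and for the activin, TGF-beta and Id genes with Fst and Bmp4, and differences between tissues for the 5 members with the smallest adjusted p of each contrast. Further called members were named after their values were seen. Within a group no pair of libraries agreed within sampling noise (the lowest ratio of chi-square to its degrees of freedom was 6.11). Nothing says that libraries came from separate extractions beyond the mouse number. Some genes of the pathway lists are counted but not reported here by name.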

Additional observations from a re-analysis of the deposited data

Results flagged for a closer look

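The genotype effect differed between tissues, by the interaction test of the joint limma fit, for the members with the smallest adjusted p of each contrast. In the pituitary against the hypothalamus the difference in log2 fold change was 3.79 for Fstl5, 2.35 for Chrdl1, -1.02 for Bmp7 and -0.74 for Id2. Of these, Id2 lost its call in each of the 6 fits without 1 mouse and with no variance trend, and Bmp7 in 3 of 6, without mouse 1, 60 or 62. In the thyroid against the hypothalamus it was 1.95 for Id2, 1.75 for Fstl1, -2.28 for Inha, 2.21 for Bambi and 1.96 for Inhbb. In the thyroid against the pituitary it was -3.87 for Fstl5, 2.69 for Id2, 1.85 for Fstl1, 2.43 for Bambi and -1.997 for Inha. The Fstl5 difference against the thyroid compares a pituitary change with a gene at 0 to 0.189 CPM in every thyroid library. Id2 fell in the K146Q pituitary and rose in the K146Q thyroid, each with a call in its own tissue and with a call in the test of thyroid against pituitary. No group reached 4 samples, so single libraries were not tested as outliers.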

How the results depend on the processing

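The log2 fold changes of the named genes gave 967 values over the processing alternatives, of which 939 kept direction and side of the threshold, 26 fell short of it, 2 passed it and 0 changed sign. Over those settings the pituitary had 5 to 8 called members, of which 5 to 7 were among the 7 reported, and the thyroid 25 to 28, of which 24 to 27 were among the 27 reported. Of the called members, 4 of 7 in the pituitary and 20 of 27 in the thyroid held in every alternative. With totals without the 10 highest genes, calls for pituitary against hypothalamus split into 2 higher and 3 lower members, beside 2 and 2 with the deposited scale.

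Leaving out 1 mouse moved the pituitary count to between 4 and 6 members, the lowest without K146Q mouse 60, and the thyroid count to between 21 and 27. The count for pituitary against hypothalamus ran from 2 to 4, with 2 without mouse 1, 60 or 62, that for thyroid against hypothalamus from 14 to 25, and that for thyroid against pituitary from 21 to 25. Over the fits without 1 mouse the named genes gave 645 values, of which 538 kept direction and side of the threshold. A further 92 fell short of it, 0 passed it and 15 changed sign. The sign changes were in genes with values near 0. In the hypothalamus Id4 ran from -0.055 to 0.123, Tgfb3 from -0.034 to 0.134, Inhba from -0.077 to 0.246, Id3 from -0.018 to 0.175 and Inha from -0.086 to 0.025. In the pituitary Inhba ran from -0.183 to 0.091, Tgfb2 from -0.141 to 0.069 and Id4 from -0.23 to 0.015, and in the thyroid Tgfb2 ran from -0.186 to 0.027 and Id4 from -0.211 to 0.047. The causes were not tested.

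Mouse numbers recur across tissues. Of 18 same-number pairs of libraries, 3 had correlated deviations over 0.1 (range -0.03 to 0.17), and 10 of 18 correlated best with their own number. No chance level was set for these counts, so they cannot decide whether the numbers pair the samples. With a replicate block the calls were 4 members for pituitary against hypothalamus, 23 for thyroid against hypothalamus and 26 for thyroid against pituitary. At this depth Fst in the pituitary and Fstl5 in the thyroid were too low for a test.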

Other observations

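Single libraries stood apart for a few members. WT thyroid mouse 2 had the lowest Gdf15 and Bmp3 of its group, at 31.2 and 0.506 CPM, while the other WT thyroids had 247 and 363 CPM of Gdf15. WT pituitary mouse 43 had 10.8 CPM of Gdf10, and the other 5 pituitary libraries had at most 1.81 CPM.

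Some antagonists were set side by side after their values were seen. Chrdl1, Vwc2 and Bmper, which all encode secreted BMP-binding proteins, were higher in the K146Q pituitary, with log2 fold changes of 2.39, 2.21 and 0.42. In the thyroid Chrdl1, Sostdc1, Chrdl2 and Bmper were higher, with log2 fold changes of 0.85, 3.52, 3.38 and 0.90. The genes of both tissues were picked from those that rose. In the pituitary 1 of 7 tested member antagonists and 3 of 12 other antagonists were higher and 0 lower. Beside this, 6.36% of all pituitary genes were higher. In the thyroid 2 of 8 and 3 of 13 were higher and 0 lower, beside 19.7% of all genes higher. This does not set the thyroid antagonists apart.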
